A study of Homo sapiens with 6 samples.

Results

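The tetraspanin gene family was examined on 6 Affymetrix U133 Plus 2.0 arrays of SW-1990, a long-established line of human pancreatic adenocarcinoma cells that was grown from a splenic metastasis. Cells carried a lentiviral short hairpin RNA against PRLR, the prolactin receptor (sh-PRLR, 3 arrays), or a scrambled hairpin (sh-Ctrl, 3 arrays), and both groups had been kept in puromycin. The labels give the arrays of a group as biological replicates and do not say how many hairpins or clones stand behind each group. Members were all genes whose symbol begins with TSPAN and a digit, together with CD9, CD37, CD53, CD63, CD81, CD82, CD151, UPK1A, UPK1B, PRPH2 and ROM1, which belong to the family under other names. This gave 33 of 19775 measured genes, read by 61 probe sets, of which 14 genes had 1 probe set and 19 had several. One of the 33, TSPAN16-AS1, is an antisense RNA that enters by its name and encodes no tetraspanin. Where a gene had several probe sets, the one brightest on average across the 6 arrays stood for it. Values are log2 expression, a difference is the sh-PRLR mean minus the sh-Ctrl mean, and ± gives the SD over 3 arrays unless an SE is named. "Rose" and "fell" are used for an adjusted p under 0.05 in limma with intensity-dependent variance, fitted over all genes.

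Tetraspanins are small proteins that cross the membrane repeatedly, with a large extracellular loop that binds partner proteins. They gather integrins, proteases and immunoglobulin-type proteins into patches of membrane, and several of them are carried on the small vesicles that cells release. In carcinoma cells they are known for roles in adhesion, migration and vesicle release. Signal from different probe sets depends on the probes as well as on the transcript, so levels are compared here between groups for 1 probe set and not between genes.

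The targeted gene was checked first. Averaged over its 7 probe sets, PRLR read 3.94, 4.38 and 4.19 in sh-PRLR, against 5.23, 5.03 and 4.79 in sh-Ctrl, and the groups did not overlap. The difference was -0.85 (p = 0.1 by exact two-sided permutation, which cannot go lower with 3 arrays a group). These probe sets were dim, with means from 3.82 to 5.58 against a median of 7.23 over genes, and 0 of 7 passed in the fit of all single-symbol probe sets (lowest limma adjusted p = 0.0948). All 7 were lower in sh-PRLR, 3 of them with groups apart, and the brightest, 227629_at, differed by -0.23 with overlapping groups (limma adjusted p = 0.833 in that fit). Epithelial identity was plain in both groups: 7 of 8 duct epithelium markers lay above that median, with EPCAM at 14.24 ± 0.05 in sh-PRLR and 14.20 ± 0.04 in sh-Ctrl, while MUC1 lay below it. The mean of the 8 duct markers ran from 10.93 to 11.45 over sh-PRLR arrays and from 11.47 to 11.54 over sh-Ctrl arrays, and 2 of the 8, CFTR and CDH1, fell. The list did not move as a whole: 4 markers were higher and 4 lower, with a median difference of -0.02. By far the largest differences were those of CFTR (-1.31) and of MUC1 (-1.30), which overlapped between groups and did not pass. The part of this shift of the mean in the results below was not tested. Mean levels of the marker lists of leukocytes, fibroblasts, endothelium, acinar cells and urothelium all lay below the median gene level on every array, between 2.73 and 5.89. Of their 21 measured entries 3 lay above that level by their own means, and 0 passed. The fibroblast mean ran from 4.20 to 4.76 over sh-PRLR arrays and from 5.11 to 5.21 over sh-Ctrl arrays, with 5 markers lower and 2 higher. The means of the other lists overlapped between groups. Over all genes 1514 of 19775 passed, 7.66%, with 660 higher and 854 lower, or 143 higher and 361 lower when each array was centred on its median.

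Among the tetraspanins 5 genes fell and 0 rose: TSPAN12, TSPAN8, TSPAN17, TSPAN1 and TSPAN13. The 5 are 15.2% of the 33 members, beside 7.66% of all genes passing in either direction with 4.32% lower and 3.34% higher. All 5 lay among the 17 members above the median gene level, where 14.6% of all genes passed, 8.17% lower. The median difference of the 33 members was -0.06, against 0.00 over all genes. Every sh-PRLR array lay below every sh-Ctrl array for 9 members, 27.3%, beside 14.1% of all genes. The opposite order was seen for 4 members, 12.1%, beside 11.7% of all genes. The gaps between groups ran from 0.0003 to 0.08 for these 4 and from 0.04 to 0.56 for the 9. With limma's default variance model 0 of 33 members passed, beside 4 of 19775 genes, 0.0202%. With that model 8 of the 33 had an unadjusted p under 0.05, beside 3209 of 19775 genes.

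**Figure D1:**
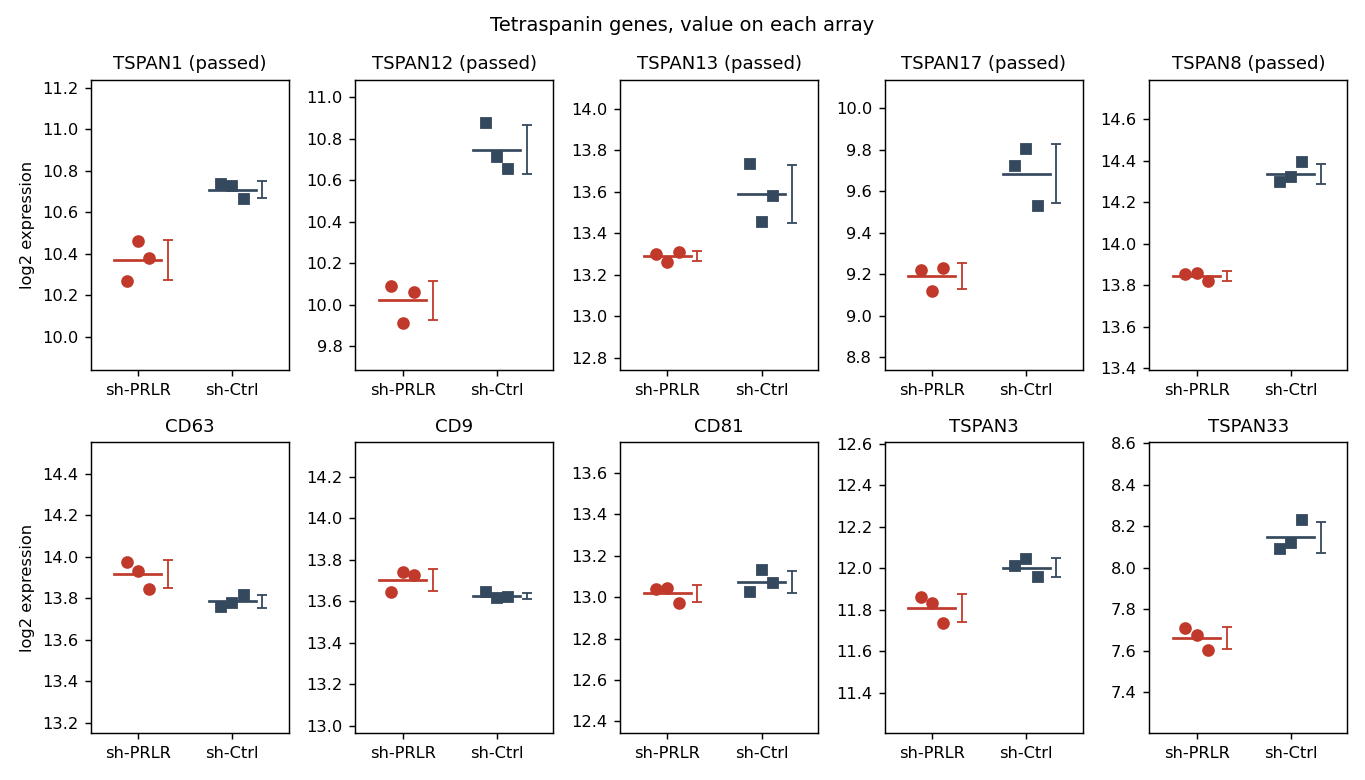
Log2 expression on each array (points), with group means (lines) and SD over 3 arrays (bars), for the 5 tetraspanin genes that passed and 5 others named for their level or for lying just outside the threshold. Each panel spans the same range on its own log2 axis. The sh-PRLR and sh-Ctrl arrays are apart in all 5 upper panels, and TSPAN12 has the widest gap. In the lower panels they are apart by 0.38 for TSPAN33, 0.10 for TSPAN3, 0.03 for CD63 and only 0.0003 for CD9, and overlap for CD81.

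TSPAN8, an antigen of gastrointestinal and pancreatic carcinoma cells that is found on their vesicles, had the smallest p of the family. Its only probe set, 203824_at, read 13.85, 13.86 and 13.82 in sh-PRLR, against 14.30, 14.32 and 14.39 in sh-Ctrl. Arrays within each group were close together, and the nearest values of the 2 groups lay 0.44 apart. The gene fell by 0.49 on the log2 scale (SE 0.04, limma adjusted p = 0.000111), and fell by 28.9% on the linear scale. In a bulk culture, fewer cells with a transcript and less of it in each cell cannot be told apart. TSPAN8 passed with each array left out in turn, and its difference then ran from -0.51 to -0.46.

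TSPAN12, a part of the receptor that binds Norrin together with the Frizzled protein FZD4 in retinal vessels, showed the largest fall. Probe set 219274_at read 10.09, 9.91 and 10.06 in sh-PRLR, against 10.88, 10.71 and 10.65 in sh-Ctrl. The difference was -0.73 (SE 0.08, limma adjusted p = 0.000702), a 1.65-fold lower level in sh-PRLR. A second probe set, 230626_at, read 7.34, 7.44 and 6.90 in sh-PRLR, against 8.24, 8.53 and 8.49 in sh-Ctrl, and it fell as well (-1.19, SE 0.18, limma adjusted p = 0.00400 in the fit of all single-symbol probe sets). The third, 230625_s_at, was lower by a similar amount (-0.70) with overlapping groups and did not pass. Among the other genes that fell, TSPAN8, TSPAN1 and TSPAN13 have 1 probe set each. It also passed with each array left out, at differences from -0.77 to -0.66.

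TSPAN1, which is found on epithelial cells and is raised in several carcinomas, read 10.27, 10.46 and 10.38 in sh-PRLR, against 10.74, 10.73 and 10.66 in sh-Ctrl. Its difference was -0.34 (SE 0.07, limma adjusted p = 0.0153). TSPAN13 read 13.30, 13.26 and 13.31 in sh-PRLR, against 13.73, 13.45 and 13.58 in sh-Ctrl, a difference of -0.30 (SE 0.06, limma adjusted p = 0.0191). For both genes the groups were apart, and for TSPAN13 the scatter lay almost wholly in sh-Ctrl (SD 0.02 in sh-PRLR and 0.14 in sh-Ctrl). These calls were less firm than those of TSPAN8 and TSPAN12. TSPAN1 missed the threshold without sh-Ctrl replicate 1 (limma adjusted p = 0.0667) or sh-Ctrl replicate 2 (0.0735). TSPAN13 missed it without sh-PRLR replicate 2 or 3 (limma adjusted p = 0.0776 and 0.0513) and without sh-Ctrl replicate 1 or 3 (0.0529 and 0.0585). Both also missed it when arrays were centred on their medians (limma adjusted p = 0.0694 for TSPAN1 and 0.104 for TSPAN13).

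The start regions of 3 of these genes are shown because the prolactin receptor signals through STAT factors, whose known site has the letters TTCNNNGAA. Sequences are from RefSeq on GRCh38.p14 and run from 250 bases before to 50 bases after an annotated start, in the direction of the gene. Capitals mark TTCNNNGAA and the SP1 site GGGCGG, searched on both strands. TSPAN1 (chr1:46174837-46175136, plus strand) held 1 TTCNNNGAA, beginning 213 bases before the start. TSPAN8 (chr12:71157950-71158249, minus strand, the more upstream of 2 listed starts) held 1 GGGCGG, which the window of its other start (chr12:71157760-71158059) did not hold, and TSPAN12 (chr7:120858095-120858394, minus strand) held neither.
TSPAN1: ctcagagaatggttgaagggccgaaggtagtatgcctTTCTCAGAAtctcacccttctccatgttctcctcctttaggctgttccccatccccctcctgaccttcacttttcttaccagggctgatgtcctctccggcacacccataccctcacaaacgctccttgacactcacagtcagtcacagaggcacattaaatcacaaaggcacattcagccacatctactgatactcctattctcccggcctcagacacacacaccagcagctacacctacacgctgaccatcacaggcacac
TSPAN8: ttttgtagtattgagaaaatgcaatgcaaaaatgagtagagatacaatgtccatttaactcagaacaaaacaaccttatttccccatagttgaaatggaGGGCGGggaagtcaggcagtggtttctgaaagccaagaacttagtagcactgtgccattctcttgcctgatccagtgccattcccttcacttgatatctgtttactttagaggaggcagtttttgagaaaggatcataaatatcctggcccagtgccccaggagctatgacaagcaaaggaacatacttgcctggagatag
TSPAN12: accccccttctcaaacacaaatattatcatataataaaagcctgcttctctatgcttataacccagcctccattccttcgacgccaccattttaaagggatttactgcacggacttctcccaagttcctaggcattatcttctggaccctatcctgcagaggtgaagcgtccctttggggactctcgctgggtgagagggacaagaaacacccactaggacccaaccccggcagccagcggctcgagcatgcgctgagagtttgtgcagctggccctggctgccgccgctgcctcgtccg
Sequence was found for 24 of the 33 members, in 44 windows. TTCNNNGAA occurred in 5 of the 44 windows, 11.4%, and in 7.66% of 35116 windows of all genes. Of the 5 genes that fell it was in TSPAN1 alone, and it was also in the windows of CD63, TSPAN4, TSPAN14 and UPK1B, which did not pass. GGGCGG occurred in 61.4% of the members' windows and in 45.0% of all windows. Of the 5 genes that fell it was in TSPAN8, TSPAN13 and TSPAN17. The windows of TSPAN13 and TSPAN17, which are not shown, held 3 and 7. Such matches describe the letters and say nothing on binding.

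TspanC8 proteins, named for cysteines of their large loop, escort the protease ADAM10 to the cell surface. Of the 6 members of this subgroup 1 fell, TSPAN17, which is 16.7%, beside 4.32% of all genes and 8.17% of genes above the median level, where 5 of the 6 lay. It read 9.22, 9.12 and 9.23 in sh-PRLR, against 9.72, 9.81 and 9.53 in sh-Ctrl, a difference of -0.49 (SE 0.10, limma adjusted p = 0.0118). The call was lost without sh-Ctrl replicate 1 (limma adjusted p = 0.0549) or sh-Ctrl replicate 2 (0.0664). Its other probe set, 1558119_at, lay far below the median gene level and pointed the opposite way without passing (1.32, SE 1.19), and the mean of both probe sets was higher by 0.41 without passing. TSPAN33 lay just outside the threshold: it read 7.71, 7.68 and 7.60 in sh-PRLR, against 8.09, 8.12 and 8.23 in sh-Ctrl. The nearest values of its groups lay 0.38 apart, against 0.30 for TSPAN17, and the difference was -0.48 (SE 0.13, limma adjusted p = 0.0534).

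TSPAN5 was read differently by its probe sets. The representative one, 225387_at, did not pass and read 8.90, 8.89 and 8.84 in sh-PRLR, against 8.83, 9.12 and 9.18 in sh-Ctrl. The groups overlapped, and the difference was -0.16 (limma adjusted p = 0.481 in the fit over genes). Its other probe sets both fell. Probe set 225388_at read 7.71, 8.02 and 7.72 in sh-PRLR, against 8.33, 8.55 and 8.44 in sh-Ctrl (-0.62, SE 0.14, limma adjusted p = 0.0300 in the fit of all single-symbol probe sets). Probe set 209890_at read 8.42, 8.05 and 8.17 in sh-PRLR, against 8.88, 8.59 and 8.84 in sh-Ctrl (-0.56, SE 0.14, limma adjusted p = 0.0449 in that fit). The other 3 TspanC8 members, TSPAN14 (0.00), TSPAN15 (-0.20) and TSPAN10 (0.03), did not pass, and TSPAN10 was below the median gene level. ADAM10 itself, by probe set 202603_at, was at 12.81 ± 0.09 in sh-PRLR and 12.82 ± 0.04 in sh-Ctrl, with a 95% interval of the difference from -0.13 to 0.11. Its other probe sets were lower by more than this interval spans, 202604_x_at with groups apart (-0.21) and 214895_s_at with overlap (-0.17). Neither passed.

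**Figure D2:**
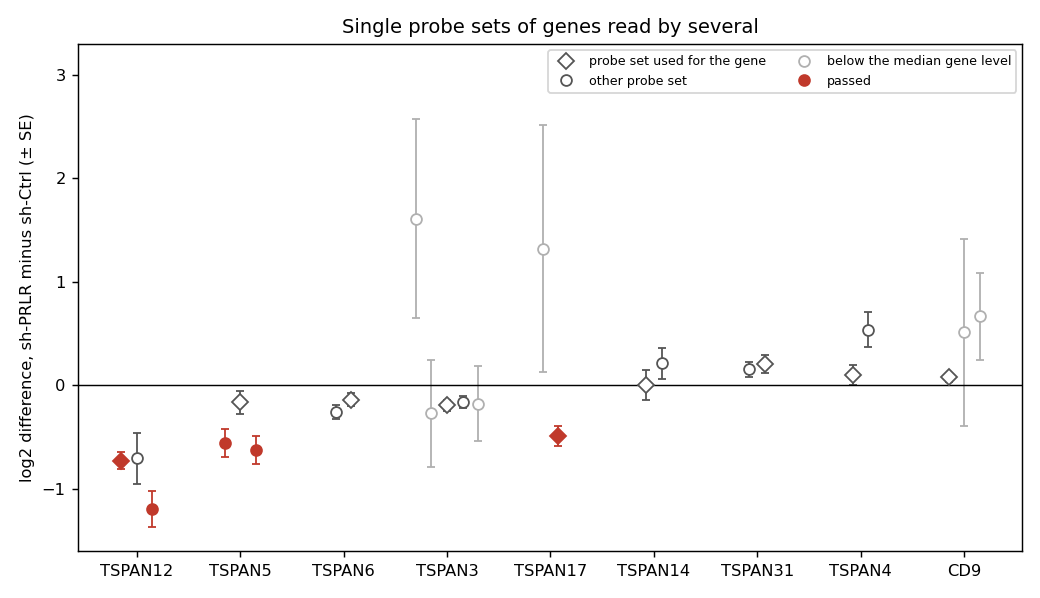
Log2 difference (± SE) of every probe set of 9 tetraspanin genes read by more than 1. Diamonds are the probe sets that represent the gene, grey marks lie below the median gene level, and filled red marks passed. All 3 probe sets of TSPAN12 and of TSPAN5 lie below 0, while the widest bars belong to dim probe sets of TSPAN3 and TSPAN17.

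Of the 28 probe sets that did not represent a gene, 3 fell and 0 rose: 1 of TSPAN12 and 2 of TSPAN5. In that fit 4.67% of all 41091 probe sets passed, 2.5% lower. For TSPAN6 both probe sets were lower with groups apart. Probe set 209108_at read 10.79, 10.74 and 10.65 in sh-PRLR, against 11.0, 11.02 and 10.93 in sh-Ctrl (-0.26, limma adjusted p = 0.0508 in the probe set fit), and the representative 209109_s_at differed by -0.14 (limma adjusted p = 0.207 in the fit over genes). Neither passed. TSPAN3 was just outside the threshold too: it read 11.86, 11.83 and 11.73 in sh-PRLR, against 12.01, 12.04 and 11.96 in sh-Ctrl, a difference of -0.19 (SE 0.05, limma adjusted p = 0.0603). Its next probe set, 200973_s_at, gave -0.16 with the groups again apart.

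The members known best from cell surfaces and vesicles are the 7 CD-named genes, and none passed with limma's intensity-dependent variance. Beside this, 4.32% of all genes fell, and 8.17% of genes above the median level, where 4 of the 7 lay. At such shares, 0 of 7 does not set these genes apart from other genes. With the default variance 0 of all 33 members passed, so that model cannot set the CD-named genes apart. Of the 7, 1 had an unadjusted p under 0.05 with the intensity-dependent variance and 0 with the default. The counts were 10 and 8 of all 33 members, and 4010 and 3209 of 19775 genes. CD63, which resides in late endosomes and on released vesicles, read 13.97, 13.93 and 13.85 in sh-PRLR, against 13.76, 13.78 and 13.82 in sh-Ctrl. The groups were apart by 0.03, and the difference of 0.13 did not pass (SE 0.05, limma adjusted p = 0.117). CD9, a surface and vesicle protein needed on the egg for fusion with sperm, read 13.64, 13.74 and 13.73 in sh-PRLR, against 13.64, 13.62 and 13.62 in sh-Ctrl (0.08, limma adjusted p = 0.357). CD81, an entry factor of hepatitis C virus, read 13.04, 13.04 and 12.97 in sh-PRLR, against 13.02, 13.13 and 13.07 in sh-Ctrl (-0.06, limma adjusted p = 0.587). The 95% intervals of these differences were narrow, from 0.03 to 0.23 for CD63, from -0.02 to 0.17 for CD9 and from -0.16 to 0.05 for CD81. None reached the difference of TSPAN8 in either direction.

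CD151, which binds laminin-receptor integrins, averaged 10.03 ± 0.07 in sh-PRLR and 9.85 ± 0.11 in sh-Ctrl (0.18, limma adjusted p = 0.256). CD82, known as a suppressor of metastasis, was dim and scattered, at 6.82 ± 0.64 in sh-PRLR and 6.66 ± 0.30 in sh-Ctrl (0.16, limma adjusted p = 0.842). TSPAN31 (0.21) and TSPAN4, a component of migrasomes (0.10), were, besides TSPAN14, the other members above the median gene level with a positive difference. Neither passed, and both probe sets of each gene had that sign.

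The remaining 16 members, CD82 and TSPAN10 among them, lay below the median gene level, and 0 of them passed or had an unadjusted p under 0.05 in limma with intensity-dependent variance. They include genes that mark other tissues. The differences were -0.97 for CD37 and -0.28 for CD53 of leukocytes, -0.40 for PRPH2 and 0.07 for ROM1 of photoreceptor discs, -0.04 for UPK1A and 0.12 for UPK1B of urothelium, and 0.32 for TSPAN7, known from neurons. UPK1A, for example, read 5.44, 2.61 and 3.42 in sh-PRLR, against 5.73, 2.93 and 2.94 in sh-Ctrl. Its arrays differed more within each group than the group means did. The SD of a group had a median of 0.63 and reached 1.93 among these 16, against a median of 0.07 and at most 0.27 among the 17 brighter members. The largest difference in the family by size, -1.05 for TSPAN11 with 4.75 ± 0.88 in sh-PRLR and 5.80 ± 0.16 in sh-Ctrl, thus carried an SE of 0.52 and did not pass (limma adjusted p = 0.295). Of the same 16, TSPAN9, TSPAN32, TSPAN2, TSPAN16, TSPAN16-AS1 and TSPAN18 had differences between -0.41 and 0.67. The SE of these 16 ran from 0.22 to 1.06, and the 95% interval of each included 0.

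**Figure D3:**
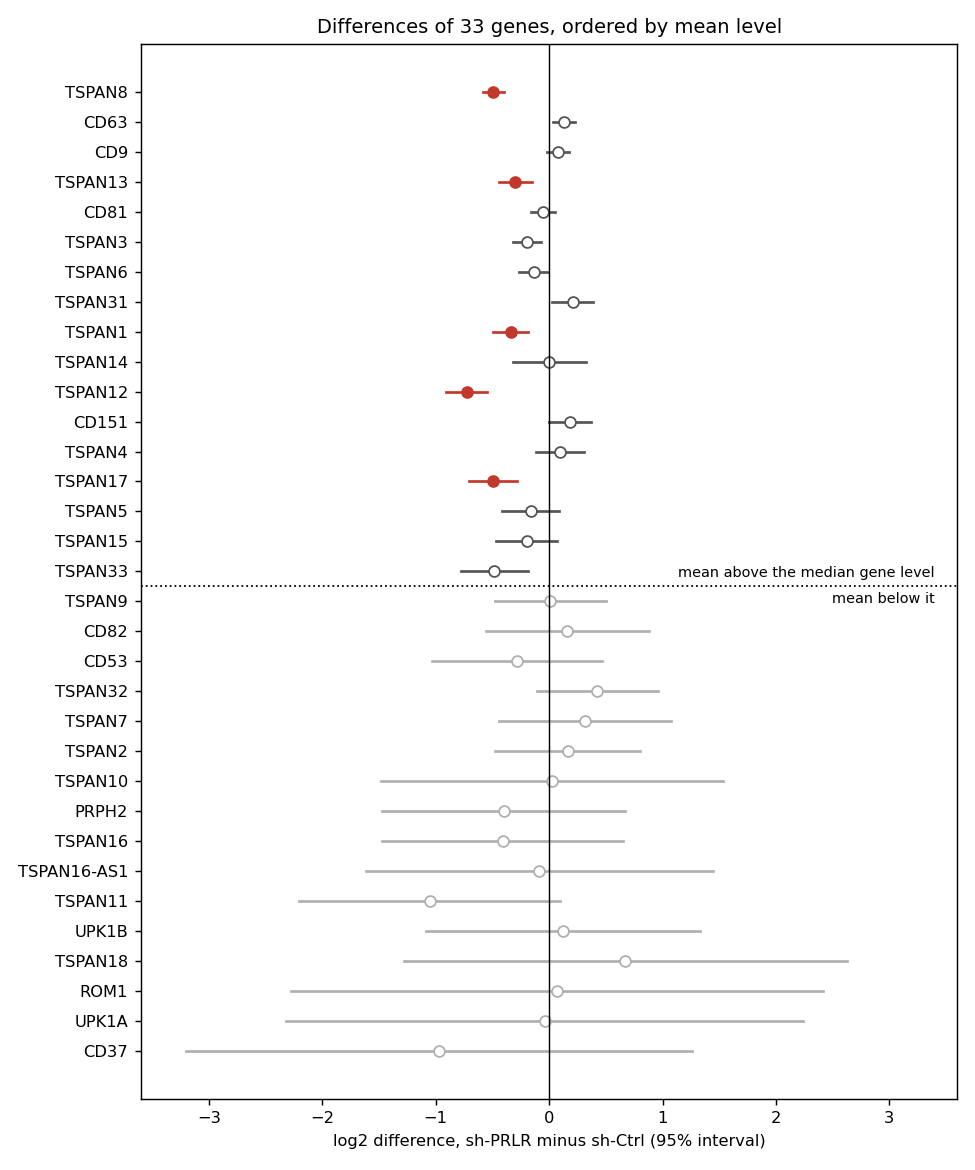
Log2 difference of all 33 members with its 95% interval, from the highest mean level at the top to the lowest at the bottom. Filled red points passed. The dotted line parts the 17 members above the median gene level from the 16 below it, where every interval is wider than those above.

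Partner genes of the tetraspanins were set beside the family, from lists chosen with earlier results of these data known. Of 70 measured partner genes 9 rose and 5 fell, 20.0%, beside 7.66% of all genes. These lists are mostly of well-expressed genes: 46 of the 70 lay above the median gene level. The count was 8 without sh-PRLR replicate 2, 9 without sh-PRLR replicate 3, 8 without sh-Ctrl replicate 1 and 6 without sh-Ctrl replicate 2, and it was 4, with 1 higher, when arrays were centred on their medians.

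Among genes of small vesicle formation and release, 6 rose and 1 fell of 14 measured, all above the median gene level, beside 14.6% of all genes above that level passing in either direction, and the median difference was 0.15. Of the 14 differences 9 were positive and 5 negative. The 7 became 4 without sh-PRLR replicate 2 or sh-Ctrl replicate 1, 3 without sh-Ctrl replicate 2, and 2 with averaged probe sets. Without _x_at and _s_at probe sets 2 passed, with 10 of the 14 genes still tested. SDC4, a syndecan, read 11.41, 11.53 and 11.46 in sh-PRLR, against 10.78, 10.77 and 10.89 in sh-Ctrl (0.66, SE 0.06, limma adjusted p = 0.000229). SDCBP, or syntenin, which links syndecans to vesicle budding, rose by less (0.18, limma adjusted p = 0.0456), and passed in 3 of 13 alternative settings. STAM (0.37) and TSG101 (0.19), parts of the machinery that sorts cargo into endosomal vesicles, and the raft protein gene FLOT1 (0.32) rose too. STAM passed in 11 of 13 alternative settings, TSG101 in 2 of 14 and FLOT1 in 5 of 13.

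The closely related RAB27 genes, whose products dock secretory vesicles at the plasma membrane, went in opposite directions. RAB27B read 11.48, 11.57 and 11.48 in sh-PRLR, against 11.21, 11.14 and 11.15 in sh-Ctrl (0.34, limma adjusted p = 0.00494). RAB27A read 9.83, 9.72 and 9.61 in sh-PRLR, against 10.18, 10.15 and 10.11 in sh-Ctrl (-0.43, limma adjusted p = 0.00999), and all 5 of its probe sets were lower on average, 3 with groups apart and 2 with overlap. Arrays did not overlap between groups for the representative probe set of either gene. Of the 7 passing vesicle genes 1, SDC4, passed when arrays were centred on their medians.

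**Figure D4:**
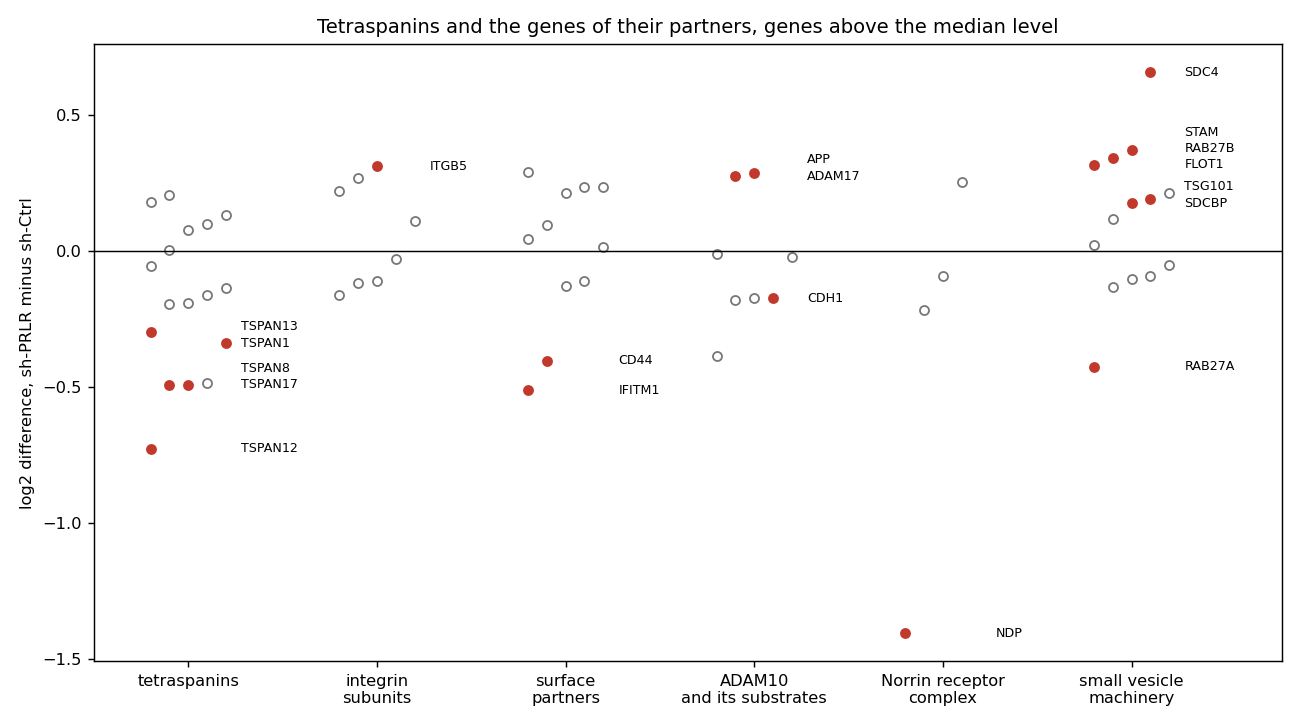
Log2 difference, sh-PRLR minus sh-Ctrl, of tetraspanins and of 5 lists of partner genes, for genes above the median gene level. Filled red points passed and are named, and open points did not. Passing tetraspanins all lie below 0, and 6 of the 7 passing vesicle genes lie above it.

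Among ADAM10 and its substrates, APP, the amyloid precursor, rose (0.29, limma adjusted p = 0.00373), as did the related protease ADAM17 (0.27, limma adjusted p = 0.0254), while CDH1, E-cadherin, fell (-0.17, limma adjusted p = 0.0284). The other 8 of 11 did not pass. The 3 are 27.3%, beside 7.66% of all genes and 14.6% of genes above the median level, where 8 of the 11 lay. They became 1 without sh-PRLR replicate 2, sh-PRLR replicate 3 or sh-Ctrl replicate 2. They became 0 with the default variance model, median centring or averaged probe sets. Without _x_at and _s_at probe sets 1 passed, with 8 of the 11 genes still tested. APP passed in 10 of 14 alternative settings, ADAM17 in 7 of 14 and CDH1 in 4 of 13. In the Norrin receptor complex, where TSPAN12 belongs, the ligand gene NDP fell, at 7.04, 6.37 and 6.72 in sh-PRLR, against 8.28, 7.98 and 8.08 in sh-Ctrl (-1.41, SE 0.20, limma adjusted p = 0.00275). Its sh-PRLR mean of 6.71 lay below the median gene level of 7.23. This is 1 of 4 measured genes, 25%, beside 7.66% of all genes and 14.6% of genes above the median level, where all 4 lay. Any link between the falls of NDP and TSPAN12 was not tested. The receptor FZD4 (-0.09) and the co-receptors LRP5 (-0.22) and LRP6 (0.25) did not pass. LRP6 lay nearest, with groups apart and a limma adjusted p = 0.0635.

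Of 20 integrin subunits 1 rose, ITGB5 (0.31, limma adjusted p = 0.0418), which passed in 2 of 14 alternative settings. This is 5% of the subunits, beside 7.66% of all genes. ITGA9 was lower with groups apart by its representative probe set, 206009_at (-0.69), and did not pass. Its probe set 227297_at, at the same mean of 6.18, fell (-1.30, SE 0.29, limma adjusted p = 0.0303 in the fit of all single-symbol probe sets). Both lay below the median gene level, and the groups overlapped for its dimmer probe sets. Laminin-binding partners of CD151 did not pass: ITGA6 had a difference of 0.22, ITGB4 of 0.27, ITGB1 of 0.11 and ITGA3 of -0.12. Of 13 other surface partners 2 fell, 15.4%, beside 14.6% of genes above the median level passing in either direction, where 11 of the 13 lay. IFITM1, an interferon-induced protein that joins CD81 on leukocytes, averaged 10.34 ± 0.09 in sh-PRLR and 10.85 ± 0.03 in sh-Ctrl (-0.51, limma adjusted p = 0.00164). CD44, the hyaluronan receptor, had a difference of -0.40 by probe set 212063_at (limma adjusted p = 0.0198), the single one of its 13 probe sets that passed, and 6 of the 13 were higher without passing. By their representative probe sets, the immunoglobulin-type partners PTGFRN (-0.13), IGSF8 (0.24) and IGSF3 (0.24) and the adhesion protein EPCAM (0.04) did not pass. PTGFRN was read differently by its other probe set, 224950_at, which fell with groups apart. The difference there was -0.47 (SE 0.08, limma adjusted p = 0.00853 in the fit of all single-symbol probe sets). PTGFRN also passed with averaged probe sets.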

How the data were processed

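RNA of 6 samples of SW-1990 cells was extracted with Trizol, labelled with biotin and hybridised to arrays. The labels' protocols list several labelling kits and do not say which applied. The authors deposited a log2 value for each probe set on each array. Per the submitters' processing notes, the tools were MAS5, RMA and affy, whose roles and versions are not stated. The mean of the linear values with 2% trimmed at each end was 500 on all 6 arrays, so the values were taken as scaled and not normalised again. Any filter by the authors is unstated.

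Of 54675 probe sets 41091 had 1 gene symbol in the platform annotation, 1801 had several, 11721 had none, and 62 controls were left out. The probe set with the highest mean stood for each gene. The comparison used limma 3.58.1 under R 4.3.3 (lmFit, then eBayes with trend and robust, no block), two-sided, at a Benjamini-Hochberg adjusted p of 0.05 over 19775 genes. Single probe sets were tested in a fit over all 41091. PRLR was compared by exact permutation. Default eBayes, quantile normalisation, median centring, leaving out the dimmest 40% of genes, averaging probe sets, leaving out _x_at and _s_at probe sets, the replicate block and leaving out each array were alternatives. The fit was also run on simulated data with independent noise and with shifts larger than those of the tetraspanins that fell. That run does not show how it performs for smaller differences. Python 3.11.15 with matplotlib 3.10.9 drew the figures.

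The members, lists, the variance model and the rule for named genes were chosen with earlier results of these data known. The rule gives full values for members that passed, for the 6 with the highest mean and for the 3 nearest outside the threshold above the median level, and names up to 4 passing members of each partner list, or its 2 brightest. TSPAN5, TSPAN6, TSPAN11 and UPK1A, and the other partner genes with values, were given them after these were seen. Nothing says that the replicates came from separate infections, so p-values set a difference against variation between these arrays only. In limma the variance of each gene is drawn towards a trend over genes of similar level. The number of arrays limits the precision.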

Additional observations from a re-analysis of the deposited data

How the results depend on the processing

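The count of 5 falling tetraspanins, with 0 rising, was 0 with limma's default variance model. There 8 members had an unadjusted p under 0.05, beside 3209 of 19775 genes. The count was 3 with median centring, where TSPAN12, TSPAN8 and TSPAN17 remained. The cause was not tested for either change. The count was 5 to 7, with 0 rises in each, under quantile normalisation, the filter on dim genes and averaged probe sets. The same held with every probe set tested, with the replicate block, and without _x_at and _s_at probe sets. TSPAN5 passed in place of TSPAN17 with averaged probe sets, and TSPAN6 passed without _x_at and _s_at probe sets. Leaving out 1 array gave 2 to 5 members, 6 to 13 partner genes and 665 to 1322 of all genes, beside 14 and 1514, and a PRLR difference from -0.96 to -0.73. Partner genes passing numbered 0 with the default model, 4 with median centring and 5 with averaged probe sets (the cause was not tested). Without _x_at and _s_at probe sets 5 passed, with 59 of the 70 partner genes still tested. All genes passing numbered 4, 504 and 609 with the default model, median centring and averaged probe sets. Averaging probe sets reversed TSPAN17 (0.41) and TSPAN3 (0.16), neither passing, through their dim probe sets of opposite sign. TSPAN3 passed with quantile normalisation, and TSPAN3 and TSPAN33 with the filter on dim genes, where fewer genes are tested. Same-numbered replicates did not deviate together (r = -0.06, 0.06 and -0.10 across genes above the median level), and 1 of 3 correlated best with its own number. The replicate block gave the same 5 members, 10 partner genes and 1090 of all genes. The SD of a group had a median of 0.63 among the 16 members below the median gene level, against 0.07 among the 17 above it.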

Other observations

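The L6 family, whose products resemble tetraspanins in membrane layout but are not related to them, was also measured. None of its 5 measured genes passed limma with intensity-dependent variance, or with default settings, where 4 of 19775 genes passed at all. An unadjusted p under 0.05 was seen for 0 of the 5 with the first and for 2, TM4SF20 and TM4SF5, with the default. Over all 19775 genes it was seen for 4010 and 3209. TM4SF1, an antigen of carcinoma cells and the 1 member above the median gene level, averaged 10.67 in sh-PRLR and 10.64 in sh-Ctrl, with a difference of 0.03 (limma adjusted p = 0.878). TM4SF20 (1.58) and TM4SF5 (-1.54), named after their values were seen, had their groups apart at low levels and did not pass. Of the uroplakin genes that pair with UPK1A and UPK1B, UPK2 (0.89), UPK3A (-0.45) and UPK3B (-0.19) lay below the median gene level and did not pass.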
